A study of Mus musculus with 4 samples.

Results

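Cxcl13, its receptor Cxcr5, the lymphotoxin genes Lta and Ltb, their receptor Ltbr, the related ligand Tnfsf14 (LIGHT) and the B-cell survival ligands Tnfsf13b (BAFF) and Tnfsf13 (APRIL) were followed in bone marrow cells of mature and elderly mice. These 8 genes, of 37310 genes in the annotation used, were chosen by their symbols with the values of this age comparison already known, so the age differences that follow are a description of the genes and no p-value is given for them. RNA was sequenced from 4 libraries of wild-type C57Bl/6 male mice, 2 from mature mice aged 3 months and 2 from elderly mice aged 24 months, and the labels name no treatment. The labels give bone marrow as the source, whereas the study's methods describe marrow of femurs and tibiae sorted for cells that carry the leptin receptor (LEPR+) and lack Ter119, CD31 and CD45 (Lin-), a gate that holds the skeletal stem and stromal cells of marrow. The RNA of each group was combined over 3 or 4 animals. Whether the replicates of an age came from separate pools is not given in the sources used here, so SDs and p-values measure only how far libraries lie apart, which may be technical. The elderly mice were purchased already aged and housed until sampling.

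CXCL13 is the chemokine that draws B cells and follicular helper T cells, which carry its receptor CXCR5, into the follicles of lymphoid organs. Lymphotoxin made by lymphocytes, as the soluble LTα trimer or the membrane-bound LTαβ heterotrimer, acts on stromal cells, where the heterotrimer and LIGHT engage the lymphotoxin β receptor and switch on the non-canonical NF-κB pathway through the kinase NIK and the factor RelB, one of whose known targets is Cxcl13. In bone marrow the LEPR+ stroma is best known for CXCL12, stem cell factor and interleukin-7, which hold haematopoietic stem cells and early B-lineage cells in place.

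The libraries held between 10472117 and 15650518 counts, and levels are given as CPM, the counts per 1000000 counts of the library after TMM scaling. On this scale 3 counts, taken as the lower limit, corresponded to between 0.195 and 0.270 CPM. Lepr, the gene of the sorting marker, was abundant in all libraries, with 74183 and 65727 counts at 3 months and 45713 and 87711 counts at 24 months. No transcript model without an exonic base of its own held a single count, so reads on bases shared by transcript models were taken as not counted, which removes part or nearly all of some genes. Of the 8 genes, 4 (Cxcl13, Cxcr5, Lta and Tnfsf14) have 1 transcript model and could be counted over their whole length. Ltbr could be counted on 1936 of its 2354 exonic bases (82.2%), whereas Ltb, Tnfsf13 and Tnfsf13b could be counted on 437 of 1516 (28.8%), 230 of 1637 (14.1%) and 47 of 977 bases (4.81%), so a low count of these 3 genes was not read as low expression.

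**Figure D1:**
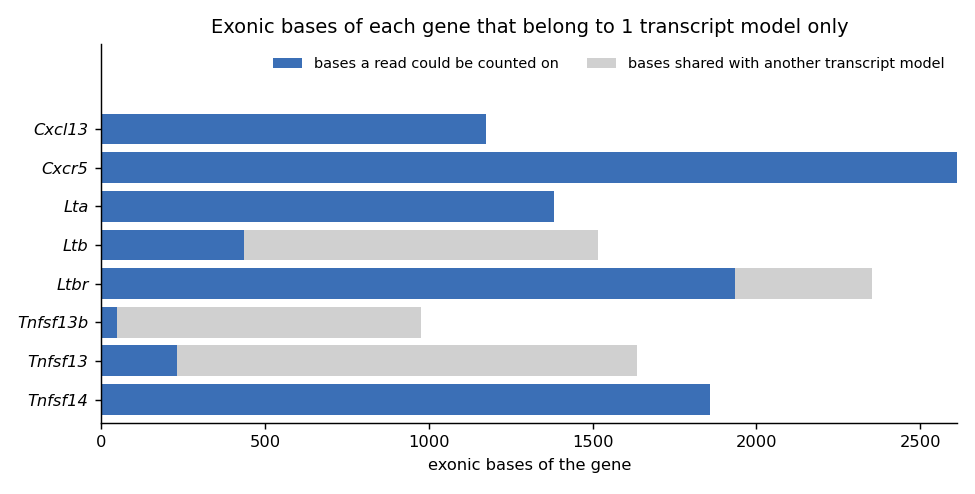
Exonic bases of each gene (x axis, bases) that belong to 1 transcript model only, on which a read could be counted (blue), and that are shared with another model (grey). Cxcl13, Cxcr5, Lta and Tnfsf14 are blue throughout, and Tnfsf13b has 47 blue bases of 977.

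Cxcl13 (ENSMUSG00000023078) lies at chr5:96385945-96390086 on the plus strand of mm9, with 4 exons and 1174 exonic bases. Its upstream sequence and that of Lta are shown because both genes separated the ages, in opposite directions, and because the element through which RelB is known to act on Cxcl13 lies near its start. Each run covers the 250 bases before the annotated start, read 5′ to 3′ on the strand of the gene from the mm9 genome, with matches to the motifs searched in capitals.
Cxcl13, chr5:96385695-96385944, plus strand: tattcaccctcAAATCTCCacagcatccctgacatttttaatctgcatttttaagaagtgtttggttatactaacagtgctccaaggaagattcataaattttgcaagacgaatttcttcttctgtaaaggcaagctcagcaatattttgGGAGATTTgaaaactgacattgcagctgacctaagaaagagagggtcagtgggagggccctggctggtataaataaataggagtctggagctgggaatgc
Lta, chr17:35342297-35342546, minus strand: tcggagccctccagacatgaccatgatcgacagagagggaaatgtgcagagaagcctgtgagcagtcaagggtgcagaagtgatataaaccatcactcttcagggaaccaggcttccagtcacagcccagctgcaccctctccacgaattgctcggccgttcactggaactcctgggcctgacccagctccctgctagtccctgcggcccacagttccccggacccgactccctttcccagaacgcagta
The motifs searched on both strands were GGAGATTT, the core letters of the RelB-type element, and GGANNTTCC, a form of the canonical NF-κB core. In the Cxcl13 window GGAGATTT stood on the plus strand from 100 to 93 bases before the start, and once more on the minus strand from 239 to 232 bases before it. Of 22372 windows of this length before protein-coding genes, 228 (1.02%) held GGAGATTT and 838 (3.75%) held GGANNTTCC. Since the RelB-type element was already known near the start of Cxcl13, a match there was set in advance. The share is a description of the motif and no test of that match. The Lta window held neither, and among the other 6 genes GGANNTTCC was found before Cxcr5, from 230 to 222 bases upstream, and before Ltb, from 19 to 11 bases upstream on the minus strand. No match overlapped another. The Lta window was also richer in G and C (58.4%) than the Cxcl13 window (40.8%). A match describes letters in these windows and shows no binding.

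Cxcl13 was higher in both elderly libraries than in both mature libraries. It had 77 and 68 counts at 3 months and 1893 and 1003 counts at 24 months, or 6.66 and 5.86 CPM against 171 and 65.3 CPM. The mature libraries lay close together, the elderly libraries stood 2.61-fold apart from each other, and the lower of them was still 9.80-fold above the higher mature library. The exact 95% Poisson intervals, which cover counting error only, ran from 163 to 179 CPM in elderly replicate 1 and from 61.3 to 69.4 CPM in elderly replicate 2, so the gap between the elderly libraries was larger than counting error. The means were 6.26 ± 0.566 CPM in mature and 118 ± 74.5 CPM in elderly mice (SD, n = 2), an 18.8-fold higher level with age and a log2 fold change of 4.23 (SE 0.41). In bulk libraries such as these, more cells that carry a transcript and more transcript per cell cannot be told apart. Among 14398 genes with a mean of at least 1 CPM, Cxcl13 ranked 61 from the top by log2 fold change.

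Cxcr5, the receptor of CXCL13 on B cells and follicular helper T cells (ENSMUSG00000047880, chr9:44319871-44334504, minus strand), did not separate the ages. It had 100 and 136 counts at 3 months and 194 and 169 counts at 24 months, or 8.65 and 11.7 CPM against 17.5 and 11.0 CPM. Elderly replicate 2 fell between the mature libraries, so the groups overlapped. The means were 10.2 ± 2.17 and 14.2 ± 4.59 CPM (SD, n = 2), with a log2 fold change of 0.48 (SE 0.32).

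**Figure D2:**
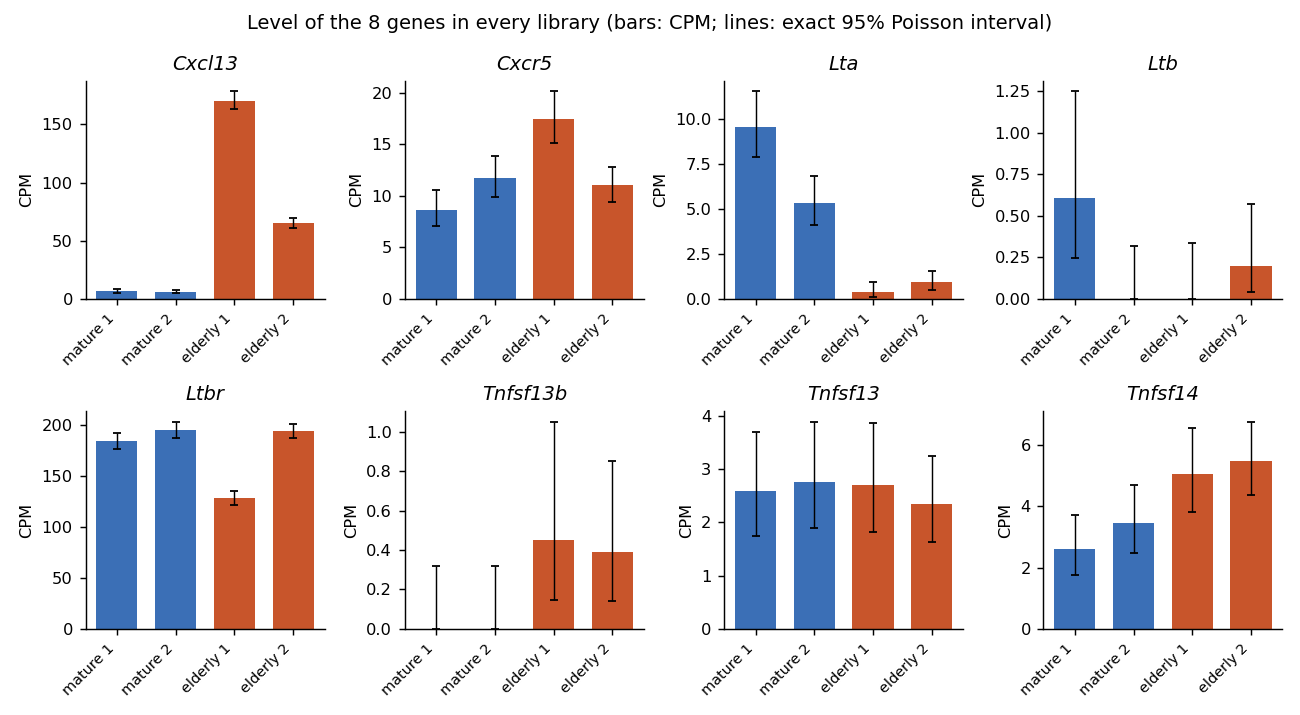
CPM (y axis, from 0, a scale of its own in each panel) of the 8 genes in the mature (blue) and elderly (orange) libraries, with exact 95% Poisson intervals as lines. Cxcl13 stands at 6.66 and 5.86 CPM in mature and 171 and 65.3 CPM in elderly libraries, Lta at 9.60 and 5.34 CPM and at 0.361 and 0.911 CPM, and Cxcr5, Ltb, Ltbr and Tnfsf13 overlap between the ages.

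Lta, which encodes the LTα subunit (chr17:35340110-35342296, minus strand, 4 exons and 1383 exonic bases), went the opposite way to Cxcl13. It had 111 and 62 counts at 3 months and 4 and 14 counts at 24 months, or 9.60 and 5.34 CPM against 0.361 and 0.911 CPM. The lower mature library stood 5.87-fold above the higher elderly library, and the groups did not overlap. The means were 7.47 ± 3.01 CPM in mature and 0.636 ± 0.389 CPM in elderly mice (SD, n = 2), an 11.8-fold lower level with age and a log2 fold change of -3.48 (SE 0.53). Lta ranked 9 from the bottom of the 14398 genes. With 4 counts in elderly replicate 1, the Poisson interval of its level there ran from 0.0982 to 0.923 CPM.

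Ltb, which encodes the LTβ subunit that anchors the heterotrimer in the membrane (chr17:35331384-35333265, plus strand), had 7 and 0 counts at 3 months and 0 and 3 counts at 24 months. Of its 437 countable bases, 338 belong to a retained-intron model that took 7, 0, 0 and 2 of these counts, while the protein-coding model Ltb-001 had 84 bases and 1 count in all, in elderly replicate 2. The counts therefore give no level for Ltb mRNA, and no fold change is given for it alone.

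Ltbr, the receptor on the stromal side (chr6:125256589-125263903, minus strand), did not separate the ages. It had 2131 and 2262 counts at 3 months and 1424 and 2984 counts at 24 months, or 184 and 195 CPM against 128 and 194 CPM. Elderly replicate 1 was low and elderly replicate 2 lay between the mature libraries, so the groups overlapped. The means were 190 ± 7.49 and 161 ± 46.5 CPM (SD, n = 2), with a log2 fold change of -0.23 (SE 0.22) that became 0.06 without elderly replicate 1 and -0.56 without elderly replicate 2. Nearly all of these counts were on the full-length model Ltbr-001, of 10 exons, which had 2098, 2248, 1406 and 2965 counts in mature replicates 1 and 2 and elderly replicates 1 and 2.

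Tnfsf14 encodes LIGHT, the other ligand of the lymphotoxin β receptor (chr17:57328915-57333612, minus strand, 4 exons and 1859 exonic bases). It had 30 and 40 counts at 3 months and 56 and 84 counts at 24 months, or 2.60 and 3.45 CPM against 5.05 and 5.47 CPM. Both elderly libraries were above both mature libraries, by a 1.46-fold margin at the closest pair, but their Poisson intervals overlapped at that pair. The means were 3.02 ± 0.603 and 5.26 ± 0.295 CPM (SD, n = 2), 1.74-fold higher with age, with a log2 fold change of 0.80 (SE 0.39).

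Tnfsf13b encodes BAFF, the main survival factor of peripheral B cells (chr8:10006843-10035441, plus strand). Reads could be counted on 47 bases of it, all in the model Tnfsf13b-202, and gave 0 and 0 counts at 3 months and 5 and 6 counts at 24 months. Set against the limit of 3 counts per library in the mature mice, the elderly mean on that stretch stood 1.62-fold above that limit. This ratio is no lower bound of the difference, since the Poisson intervals of the ages overlapped. The intervals reached up to 0.319 and 0.318 CPM in the mature libraries. In the elderly libraries they began at 0.146 and 0.143 CPM. The level of the whole gene cannot be read from that stretch.

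Tnfsf13 encodes APRIL, a ligand that plasma cells depend on in marrow (chr11:69496348-69499286, minus strand). On its 230 countable bases, all in the model Tnfsf13-002, it had 30 and 32 counts at 3 months and 30 and 36 counts at 24 months, or 2.60 and 2.76 CPM against 2.70 and 2.34 CPM. The groups overlapped, with a log2 fold change of -0.09 (SE 0.45). The readthrough gene BC096441 spans Tnfsf12 and Tnfsf13, and an antisense gene, 2010012P19Rik, overlaps the locus. The 230 countable bases lie in no exon of another transcript model on either strand. The strand setting of the counting is not given in the sources used here. Antisense reads from outside annotated exons may therefore be counted on these bases.

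Levels were set beside each other per 1000 countable bases for the 5 genes counted over most of their length. In mature mice Ltbr was highest at 98.0 ± 3.87 CPM per kb, followed by Lta at 5.40 ± 2.18, Cxcl13 at 5.33 ± 0.482, Cxcr5 at 3.90 ± 0.831 and Tnfsf14 at 1.63 ± 0.324 CPM per kb (SD, n = 2). The spread of Lta covered both Cxcl13 and Cxcr5 there. In elderly mice Cxcl13, at 100.5 ± 63.5 CPM per kb, and Ltbr, at 83.3 ± 24.0, led the order and were not separated by their spread, and Cxcr5 (5.45 ± 1.76), Tnfsf14 (2.83 ± 0.159) and Lta (0.460 ± 0.281 CPM per kb) followed. On the same scale Cxcl12, the chemokine that defines these stromal cells, stood at 3622 ± 401 CPM per kb in mature and 2339 ± 404 CPM per kb in elderly mice, so Cxcl13 remained well below it at both ages. Cxcl12 could be counted on 3511 of its 8176 bases (42.9%), a smaller part than in the 5 genes above.

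Over all genes, edgeR's quasi-likelihood test was passed at an adjusted p under 0.05 by 430 of 22214 genes tested in the higher direction (1.94%) and by 94 in the lower direction (0.423%). Of the 8 genes, 1 (Cxcl13) passed higher and 1 (Lta) passed lower in elderly mice, and 6 passed in neither direction. Both elderly libraries were above both mature libraries for 3 of the 8 (Cxcl13, Tnfsf13b and Tnfsf14), against 22% of all genes tested, and below them for 1 (Lta), against 18.9%. Since the genes were chosen on this comparison, nothing is read from these counts. The median log2 fold change was 0.19 over the 8 genes, 0.19 over the 6 genes without the sparsely counted Ltb and Tnfsf13b, and -0.01 over all genes tested. Without elderly replicate 1 the log2 fold change of Cxcl13 was 3.41 and without elderly replicate 2 it was 4.77, and with either library left out no gene of the table passed, while 1463 and 1627 genes were at an unadjusted p under 0.05.

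The 5 genes whose profile over the 4 libraries was most like that of Cxcl13, by the root mean square difference of centred log2 CPM among 14398 genes, were Gm15987 (0.262), Grik3 (0.262), Mfap5 (0.271), Igkv10-94 (0.341) and Iglc2 (0.395). Grik3 encodes a kainate receptor subunit, Mfap5 a glycoprotein of elastic microfibrils, and Igkv10-94 and Iglc2 are immunoglobulin light chain segments, whose reads can be split between near-identical copies. Mfap5 had 4 and 2 counts at 3 months and 117 and 99 counts at 24 months. Igkv10-94 had 0 and 0 against 126 and 44 counts. Gm15987, Grik3 and Iglc2 also had 0 counts in both mature libraries. The likeness of these genes and of Igkv10-94 to Cxcl13 therefore depends on the offset of 0.25 CPM. Their fitted log2 fold changes lay between 8.08 and 9.45, against 4.23 for Cxcl13. All 5 had, as Cxcl13 did, a higher CPM in elderly replicate 1 than in elderly replicate 2.

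The genes beside Cxcl13 and Lta were looked at because neighbours show whether a difference covers a stretch of the chromosome. Within 250 kb of Cxcl13 there were 8 other genes, 3 of them tested, with log2 fold changes between -0.21 and 0.72, and 0 passed in edgeR's quasi-likelihood test or in DESeq2, with 0 at an unadjusted p under 0.05. Cnot6l, a subunit of the CCR4-NOT deadenylase and the nearest well-expressed gene, had 1458 and 1526 counts at 3 months and 1377 and 1812 at 24 months. Lta lies in the class III part of the major histocompatibility complex, and the window of 250 kb around it also reached H2 genes such as H2-D1 and H2-Q7. In that window 49 genes were tested beside Ltb, with a median log2 fold change of 0.07 and a range from -1.04 to 2.66. In edgeR's test 0 of the 49 passed, with a lowest adjusted p of 0.119, 1 was at an unadjusted p under 0.05, and DESeq2 called 1. Tnf, which lies between Lta and Ltb, had 6 and 4 counts at 3 months and 6 and 7 at 24 months on 177 countable of 1639 bases, and Nfkbil1, on the other side of Lta, had 133 and 134 against 126 and 192 counts.

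**Figure D3:**
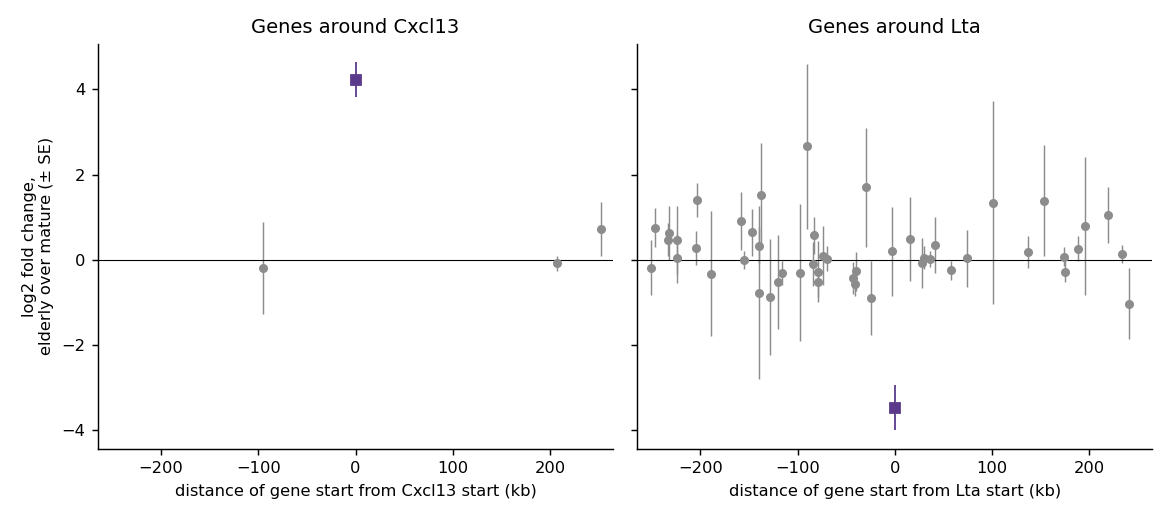
Log2 fold change, elderly over mature (y axis, lines are SE), of tested genes around Cxcl13 (left) and Lta (right, Ltb left out) against the distance of their start from the start of that gene (x axis, kb). The purple squares, Cxcl13 at 4.23 and Lta at -3.48, lie outside the neighbours' ranges of -0.21 to 0.72 and -1.04 to 2.66.

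The counts of the pathway lists stand against 1.94% of all genes tested that passed higher in edgeR's test, 2428 genes (10.9%) at an unadjusted p under 0.05 and 551 genes (2.48%) called higher by DESeq2. These lists, like the marker lists below, were chosen with earlier results of these data known. Their counts and p-values are therefore a description. Other receptors and ligands of the TNF superfamily, 20 of them tested, included 2 that rose with age and 0 that fell, with 5 at an unadjusted p under 0.05 and 3 higher by DESeq2. Tnfsf8, the CD30 ligand, had 2 and 0 counts at 3 months and 38 and 28 at 24 months, a 28.9-fold ratio of the summed levels with an exact 95% counting interval from 7.68 to 243 (adjusted p = 0.0242, edgeR). Tnfrsf11b, which encodes osteoprotegerin, the decoy receptor of RANKL, rose from 5.27 ± 1.09 to 18.3 ± 9.05 CPM (SD, n = 2, log2 fold change 1.79, SE 0.38, adjusted p = 0.0293, edgeR). The receptors of BAFF and APRIL had few or no counts. Tnfrsf13b, which encodes TACI, had 65 and 29 counts at 3 months and 102 and 87 at 24 months, on 1621 of its 2836 bases. Tnfrsf17, which encodes BCMA, had between 0 and 2 counts per library, though it could be counted on all of its 815 bases. Tnfrsf13c, the BAFF receptor gene, had 0 counts but could be counted on only 130 of 2038 bases. The median log2 fold change of the list was 0.72.

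In the NF-κB pathway downstream of the lymphotoxin β receptor 1 of 22 genes rose and 0 fell in edgeR's test, with 2 at an unadjusted p under 0.05 and 1 higher by DESeq2. The log2 fold changes lay between -0.77 and 1.91 with a median of -0.05, 11 of them above and 11 below 0. The riser was Traf1, an adaptor of TNF receptors that is itself induced by NF-κB, which went from 2.29 ± 0.299 to 8.63 ± 1.81 CPM (SD, n = 2, log2 fold change 1.91, SE 0.38, adjusted p = 0.0213). Map3k14, which encodes NIK, was lower in both elderly libraries, with 1541 and 1485 counts at 3 months and 866 and 1346 counts at 24 months and a log2 fold change of -0.66, but did not pass (adjusted p = 0.119, edgeR). Nfkb2 (0.05) and Relb (-0.49), the subunits of the non-canonical dimer, did not pass (values are log2 fold changes), and both could be counted on less than 10% of their bases. The inhibitor genes Nfkbia, with a log2 fold change of -0.13, and Nfkbie, with -0.28, had the highest means over the 4 libraries and did not pass either.

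Stromal genes of lymphoid tissue, which are the known partners of Cxcl13 in lymph node and spleen, included 1 riser among 18 tested and 0 that fell in edgeR's test, with 6 at an unadjusted p under 0.05 and 3 higher by DESeq2. Icam1, an adhesion ligand of leukocyte integrins, rose from 374 ± 22.3 to 673 ± 45.6 CPM (SD, n = 2, log2 fold change 0.85, SE 0.18, adjusted p = 0.0324). Cxcl12, with a log2 fold change of -0.63 (adjusted p = 0.176), and the complement gene C4b, with 0.30 (adjusted p = 0.65), had the highest means over the 4 libraries and did not pass. Il7, the B-lineage cytokine of marrow stroma, had a log2 fold change of -0.07. Ccl21a, Glycam1 and Madcam1, genes of lymph node stroma and vessels, had 0 counts in every library, and so did Ccl19. Madcam1 could be counted on 432 of 1420 bases and Ccl19 on 122 of 867, so their 0 counts were not read as absence. Cr2, a marker of follicular dendritic cells and B cells, had 88 and 129 counts at 3 months and 109 and 199 at 24 months, which overlap.

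Of 18 tested receptors and ligands of lymphocyte homing, 2 rose and 0 fell, with 6 at an unadjusted p under 0.05 and 3 higher by DESeq2. Cxcl9, an interferon-γ-induced chemokine, rose from 5.31 ± 1.39 to 24.0 ± 8.26 CPM (SD, n = 2, log2 fold change 2.18, SE 0.34, adjusted p = 0.0059), on 278 of its 2905 bases. Unlike Cxcl13 it was higher in elderly replicate 2 than in elderly replicate 1, at 458 against 201 counts. S1pr4, a sphingosine-1-phosphate receptor of leukocytes, rose from 3.03 ± 1.84 to 12.1 ± 3.10 CPM (SD, n = 2, log2 fold change 2.00, SE 0.43, adjusted p = 0.0315). Ccr7, the receptor that guides lymphocytes in lymph nodes, had a log2 fold change of 1.24 and did not pass (adjusted p = 0.115). Over the 4 pathway lists together 6 of 78 genes tested passed, all higher, with a median log2 fold change of 0.30. Each of the 6 lost its call without either elderly library, but so did every other gene, so this says nothing particular to them. In edgeR's exact test at a dispersion of 0.2, 5 of the 6 (all but Tnfsf8) lost it, with adjusted p-values between 0.119 and 1.0. Icam1 also lost it without mature replicate 1 (adjusted p = 0.502) or mature replicate 2 (adjusted p = 0.395), and S1pr4 without mature replicate 2 (adjusted p = 0.096).

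**Figure D4:**
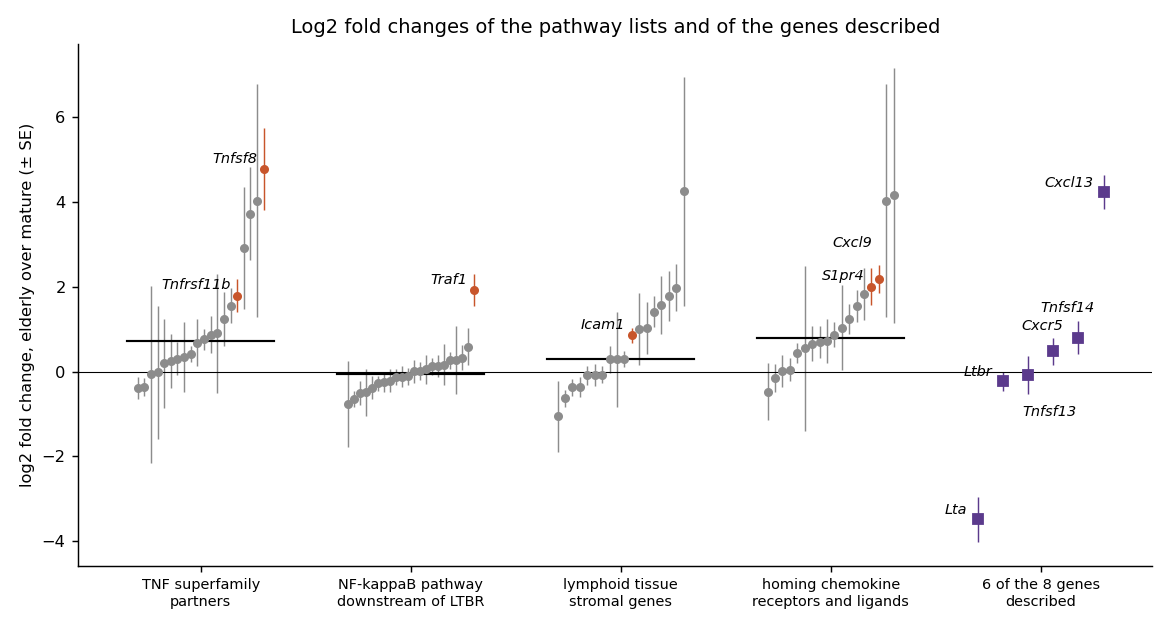
Log2 fold change, elderly over mature (y axis, lines are SE), of the tested genes of the 4 pathway lists and of 6 of the 8 genes described (purple squares, Ltb and Tnfsf13b left out for their few counts). Orange points passed the test, black lines are the medians of 0.72, -0.05, 0.29 and 0.79 from left to right, and Cxcl13 at 4.23 and Lta at -3.48 lie at the ends of the group described.

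Genes of several blood cell lists were higher in the elderly libraries, although the gate was set to remove CD45+ and Ter119+ cells. The counts of all marker lists, here and below, stand against the shares of all genes tested. Of these, 1.94% passed higher and 0.423% lower in edgeR's test, 10.9% were at an unadjusted p under 0.05, and DESeq2 called 2.48% higher. Of 12 leukocyte markers tested 4 passed higher (Cd52, Cd53, Fermt3 and Rac2) and 0 lower, and their summed level was 189 and 146 CPM in mature against 491 and 392 CPM in elderly mice. Ptprc, which encodes CD45, had 4 and 1 counts at 3 months and 12 and 8 at 24 months on 152 countable bases. B-lineage markers summed to 150 and 82.4 CPM against 965 and 902 CPM, mostly through Ighm, and 2 of 16 (Ighm and Rag1) passed. Cd79a, which encodes a subunit of the B-cell receptor, had 119 and 109 against 223 and 209 counts and did not pass. In the plasma cell list 2 of 12 (Igj and Prdm1) passed higher, while Sdc1 (-0.53) and Xbp1 (-0.35) had log2 fold changes below 0 and did not pass, and the sums of 169 and 197 CPM against 349 and 195 CPM overlapped.

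T and innate lymphoid cell markers summed to 23.5 and 34.5 CPM in mature against 81.1 and 53.2 CPM in elderly mice. In edgeR's test 0 of 15 passed, with 8 at an unadjusted p under 0.05 and 2 higher by DESeq2, and the defining marker Cd3e had 8 and 0 counts against 48 and 41 counts (adjusted p = 0.0824). The most abundant of them by the mean over all libraries, Il7r and Tcf7, did not pass. Among 15 tested macrophage and dendritic cell markers 6 passed higher (C1qa, C1qb, C1qc, Cx3cr1, Lyz2 and Mrc1), and their sum without Vcam1, which LEPR+ stromal cells also express, was 648 and 429 CPM against 997 and 1078 CPM. Neutrophil markers passed higher in 9 of 17 cases, led in order of p by Elane, Mmp9, Ctsg, Cebpe, Ngp and S100a8. Erythroid markers passed higher in 8 of 14 cases, among them Car2, Rhag, Car1, Rhd and Klf1.

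Of 11 endothelial markers 1 (Flt4) passed higher and 0 lower. Their log2 fold changes were above 0 for 9 and below 0 for 2, with a median of 1.00. In both elderly libraries 7 of the 11 were higher and 0 lower, against 22% and 18.9% of all genes tested. Pecam1, which encodes CD31, was 1 of the 2 below 0, with a log2 fold change of -0.84, and did not pass. Megakaryocyte and platelet markers overlapped between the ages in all 11 genes tested, with 0 passing in edgeR's test or in DESeq2 and 0 at an unadjusted p under 0.05. Their sum was 31.7 and 296 CPM against 135 and 211 CPM, and Ppbp and Gp5 were the most abundant of them by the mean over all libraries. Of 17 LEPR+ stromal markers, led in abundance by Cxcl12 and Igfbp5, 0 passed in edgeR's test or in DESeq2, with 6 at an unadjusted p under 0.05. Their log2 fold changes were below 0 for 15 and above 0 for 2. In both elderly libraries 9 of the 17 were lower and 2 higher, against 18.9% and 22% of all genes tested. The LEPR+ markers summed to 47367 and 47358 CPM in mature against 33214 and 42779 CPM in elderly mice. The part of these other cells in the differences of Cxcl13 and Lta was not tested.

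**Figure D5:**
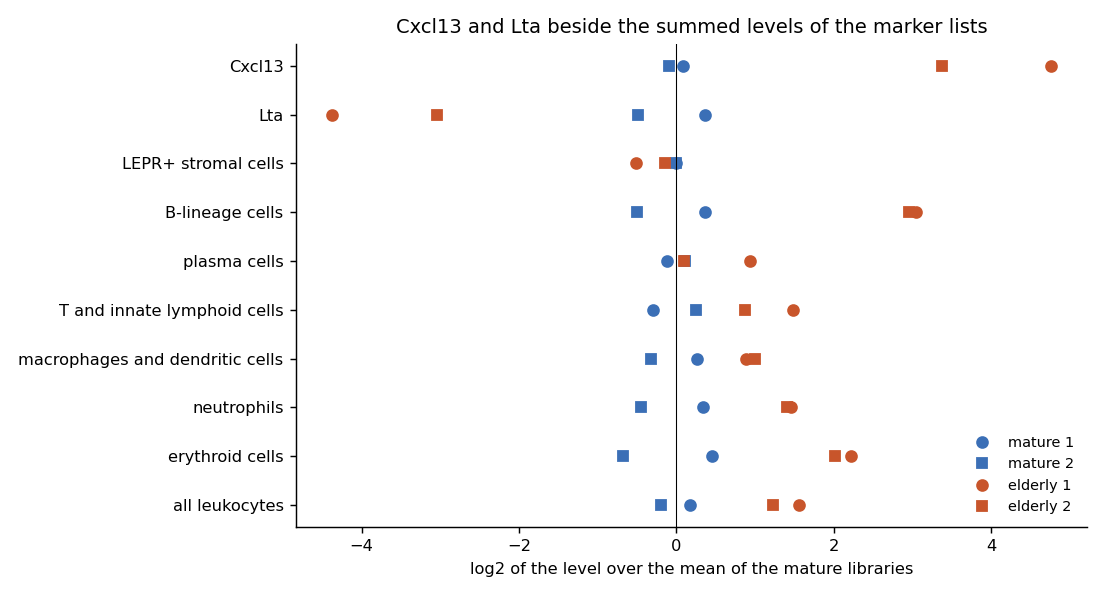
Log2 of the level in each library over the mean of the mature libraries (x axis, 0 is the mature mean) for Cxcl13, Lta and the summed CPM of 8 marker lists, the blood cell lists without genes of the LEPR+ list. Elderly libraries (orange) lie to the right of 0 for Cxcl13 and the blood cell lists, overlapping the mature libraries in the plasma cell list, and to the left for Lta and the LEPR+ list.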

How the data were processed

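RNA-seq of 4 libraries, 2 per age, was analysed, with the groups taken from the titles of the labels. Per the methods, libraries were made from poly(A) RNA, apart from some named samples that were prepared from total RNA. Whether those names cover a library used here is not given in the sources. The same preparation at both ages therefore cannot be taken as given, and its part in the differences was not tested. Per the methods and labels, the authors trimmed reads with CutAdapt, aligned them to mm9 with HISAT2 and made counts with featureCounts; versions, strand setting and handling of shared bases are not given in the sources used here. The deposited values are raw counts per Ensembl transcript without normalization. Of 95883 transcripts, 95495 had an entry in GENCODE release M1, and their counts were summed to 37310 genes; the 388 unmatched held 0.0785% to 0.0888% of counts and were left out. All 25621 transcripts without an unshared exonic base had 0 counts, which is why the countable bases are given.

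Genes with a summed count over 2 were kept (22214) and the ages compared with edgeR 4.0.16 in R 4.3.3 (TMM, quasi-likelihood test, 2-sided, no covariate, prior count 0.125), with Benjamini-Hochberg adjustment over all genes tested. With 2 libraries per age the smallest p of an exact permutation test is 0.333, and none was run. Alternatives were DESeq2 1.42.0, edgeR's exact test at a dispersion of 0.2, the robust fit, no filter, filterByExpr, library size alone, TMM factors from all but immunoglobulin, hemoglobin and histone genes, the replicate number as a block, counts per transcript, protein-coding genes only, a prior count of 2, thresholds on the fold change and each library left out. The test was tested on simulated data.

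The 8 genes, the 4 pathway lists and the 10 marker lists were chosen with earlier results of these data known. Named are the 8 genes, called genes of each list whose ages did not overlap (up to 6 in order of p, and where fewer than 2 were called the 2 with the highest mean), the defining markers and the 5 genes most like Cxcl13 (offset 0.25 CPM). A few genes named by it are not reported here. Other genes of the lists (such as Map3k14, Relb, Tnfrsf13b, Tnf, Il7, Ccr7 and Cr2), the genes around Cxcl13 and Lta, and the genes most like Lta were chosen after their values were seen. Upstream windows were read from the mm9 genome at the most upstream protein-coding start.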

Additional observations from a re-analysis of the deposited data

How the results depend on the processing

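Cxcl13 kept its direction in all 15 alternatives and passed the threshold in 12 of them (not in the robust quasi-likelihood fit and not without either elderly library), and Lta kept its direction in all 15, between -4.33 and -2.99, and passed in 13. Leaving out 1 library gave log2 fold changes of Cxcl13 between 3.41 and 4.77. Both genes were chosen with this comparison already known, and every alternative drew on the same libraries. How often they passed is therefore a description and no independent support. The number of all genes that passed also changed with the setting, as given below. Ltbr (-0.56 to 0.06) and Tnfsf13 (-0.16 to 0.02) changed sign within the alternatives and passed in none of them. Ltb, with 10 counts in all, gives no usable fold change under any. The fitted log2 fold change of Tnfsf13b, 5.41, was 1.85 with a prior count of 2 and is no measure of size.

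Counts of genes depended on the setting. Against 430 higher, 94 lower and 6 pathway genes, the exact test at a dispersion of 0.2 gave 179, 29 and 2, the robust fit 691, 188 and 12, no filter 866, 218 and 13, and an absolute log2 fold change over 2 gave 177, 32 and 2. DESeq2 gave 153 lower and 10 pathway genes, counts per transcript 11 and protein-coding genes alone 10 pathway genes. Leaving out 1 library gave between 0 and 580 higher, between 0 and 94 lower and between 0 and 9 pathway genes, with the 0 in edgeR's quasi-likelihood test without either elderly library, where 1463 and 1627 genes were at an unadjusted p under 0.05. Without mature replicate 1 or 2, which leaves as many samples, 661 and 412 genes passed in all. The cause was not tested.

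The replicate block gave 962 higher, 314 lower and 14 pathway genes. The numbers were not taken as pairs, since deviations of same-numbered libraries correlated at 0.0433 over 14398 genes and nothing in the labels ties them. The block changed the call of none of the 8 genes. Counts below about 3 per library set the limit for Ltb and Tnfsf13b, and 2 libraries per age limit every difference.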

Other observations

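The 5 genes whose profile over the 4 libraries was most like that of Lta, by the same measure as for Cxcl13, were Asxl3 (0.155), Pof1b (0.216), Cacng4 (0.222), Gpc3 (0.274) and 5031410I06Rik (0.302). Asxl3 encodes a Polycomb-associated protein, Pof1b an actin-binding protein of epithelia, Cacng4 a regulatory subunit of AMPA receptors and calcium channels, and Gpc3 the heparan sulfate proteoglycan glypican-3. Cacng4 had 93 and 62 counts at 3 months and 6 and 14 counts at 24 months, beside 111 and 62 against 4 and 14 counts for Lta. Gpc3 had 54 and 36 against 1 and 11 counts. Asxl3 and Pof1b had 0 counts in elderly replicate 1, so their likeness to Lta depends in part on the offset of 0.25 CPM. These genes were looked up after the values of Lta were seen, and a likeness over 4 libraries is a description.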
